A study of Mus musculus with 6 samples.

Results

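The 10 genes described here are the Notch receptor genes Notch1, Notch2, Notch3 and Notch4, the ligand genes Dll1, Dll4, Jag1 and Jag2, and the target genes Hey1 and Hey2. They were taken by symbol from the deposited count table, and all 10 were found among its 23420 genes. The RNA came from endothelial cells of embryonic day 12.5 mouse embryos. All embryos carried both Csf1r-iCre, in which the promoter of the myeloid receptor gene Csf1r drives a Cre recombinase, and the Rosa26 reporter RosatdTomato. Cells positive for the endothelial protein PECAM1, and negative for KIT, CD45 and CD11b, were taken from 3 whole embryos by sorting, as a tdTom+ fraction, with a history of Csf1r-iCre activity, and a tdTom- fraction without the red reporter protein. There were 3 tdTom+ and 3 tdTom- libraries. The labels do not say which embryo gave which library, so the main test did not pair the libraries. Fractions sorted from the same embryo are not independent, and the main test does not take that into account. A fit blocked by replicate number is given as an alternative. P-values measure the spread between these libraries. The comparison asks whether endothelial cells of the Csf1r-iCre lineage differ from the other endothelial cells in their Notch genes.

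Notch receptors are membrane proteins that are cut when a ligand on a neighbouring cell binds them. The released inner part enters the nucleus, joins the DNA-binding protein RBPJ and switches on genes of the Hes and Hey families of transcriptional repressors. In embryonic vessels, signalling from DLL4 to NOTCH1 restrains sprouting and is needed for arterial identity, while JAG1 can oppose DLL4 during sprouting. NOTCH3 is best known from the mural cells that wrap vessels, and NOTCH4 is found mainly in endothelium.

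Library totals ran from 8919887 to 11767956 counts, and 13142 genes were abundant enough to test. The 10 endothelial markers, among them Pecam1, Cdh5 and Kdr, summed to 7229 to 7496 CPM in tdTom+ and 7184 to 7298 CPM in tdTom- libraries, CPM being read counts scaled by TMM to one library total. Markers of 4 other cell types differed in sum without overlap. The 8 megakaryocyte markers summed to 216 to 410 CPM in tdTom+ against 26.6 to 43.5 CPM in tdTom- libraries, with 4 called higher. The macrophage markers, 7 in the table and led by Mrc1, summed to 66.6 to 122 CPM in tdTom+ against 31.9 to 43.9 CPM in tdTom- libraries, with 1 of 3 tested called higher. Most of that sum was Mrc1, with 105, 58.8 and 110 CPM in tdTom+ and 24.8, 25.9 and 33.6 CPM in tdTom- libraries. Csf1r was also higher without overlap, and the rest overlapped between groups. Among these, Ptprc had 0, 0 and 4 counts in tdTom+ and 19, 0 and 22 in tdTom- libraries. The 8 neural markers summed to 15.9 to 25.3 CPM in tdTom+ and 36.0 to 39.9 CPM in tdTom- libraries, with none of the 5 tested called. The 6 germ cell markers summed to 1.75 to 2.90 CPM in tdTom+ and 49.5 to 93.7 CPM in tdTom- libraries, and Dazl, Dppa3 and Pou5f1 among them were at 0 counts in all tdTom+ libraries; 4 of 5 tested were called lower. Mural markers overlapped, at 60.6 to 91.0 CPM in tdTom+ and 57.1 to 100.3 CPM in tdTom- libraries, as did mesenchyme, hepatoblast and erythroid markers. Neither the presence of such cells nor their part in the Notch gene values was tested.

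Of the 10 genes, 1 passed the test across all genes, the ligand gene Jag1, which was about 2-fold lower in tdTom+ cells (log2 fold change -1.03 ± 0.13, SE, n = 3 each; edgeR's quasi-likelihood test, two-sided, Benjamini-Hochberg adjusted p = 0.00435, with calls made under 0.05). In bulk RNA of sorted cells, fewer cells with a transcript and less of it per cell cannot be told apart. No member was called higher. Over all genes tested 0.814% were called lower and 0.769% higher, or 1.58% in either direction. Hey2 and Hey1 had the next smallest p and also lower means in tdTom+ cells, but missed the threshold. An unadjusted p under 0.05 was reached by 4 members, Jag1, Jag2, Hey1 and Hey2, all with lower means in tdTom+ cells, and by 10.7% of all genes tested. The CPM ranges of the groups did not overlap for 5 members, which were the same 4 genes and Notch2, and of these Notch2 had the higher values in tdTom+ cells. Among all genes tested, 17.2% had groups that did not overlap, 9.35% with lower and 7.88% with higher tdTom+ values. The median log2 fold change of the 10 members was -0.17, beside -0.00026 over all genes tested.

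**Figure D1:**
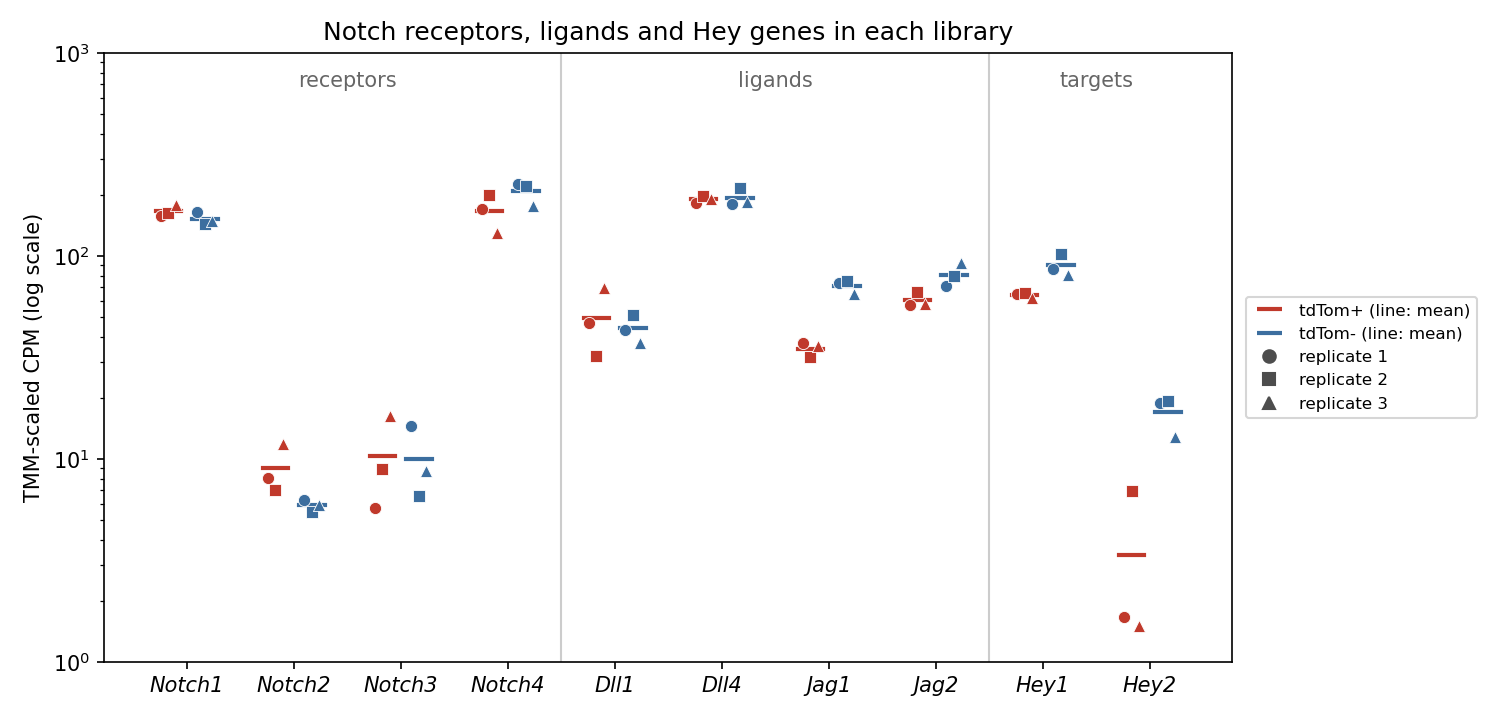
Level of each of the 10 genes in every library, as TMM-scaled CPM (vertical log axis), with tdTom+ libraries in red and tdTom- libraries in blue; symbols mark the replicate number and horizontal lines the group means. The Jag1 points of the groups are separate and tight, at 31.7 to 37.1 CPM in tdTom+ and 65.0 to 75.2 CPM in tdTom- cells, whereas tdTom+ replicate 2 lies apart from the other tdTom+ libraries for Hey2.

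The receptor genes were led by Notch4 and Notch1 in both fractions. Notch1 (chromosome 2, 26457903 to 26516663, mm10, GENCODE M21), the main receptor for DLL4 in vessels, had 158, 163 and 178 CPM in tdTom+ libraries 1 to 3 and 165, 144 and 149 CPM in tdTom- libraries. The ranges overlapped, and its log2 fold change was 0.12 ± 0.09 (SE, adjusted p = 0.726 by edgeR). Notch4 (chromosome 17, 34564268 to 34588503), the receptor gene largely restricted to endothelium, had 171, 200.5 and 130 CPM in tdTom+ and 227, 221 and 177 CPM in tdTom- libraries. It was lowest in replicate 3 of each group, and the groups overlapped because tdTom+ replicate 2 lay above tdTom- replicate 3. Its log2 fold change was -0.32 ± 0.15 (SE, adjusted p = 0.498 by edgeR).

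Notch2 and Notch3 were low. Notch2 (chromosome 3, 98013527 to 98150361) had 92, 77 and 127 counts in the tdTom+ libraries and 65, 65 and 53 in the tdTom- libraries, or 9.0 ± 2.54 CPM and 5.91 ± 0.402 CPM (SD, n = 3 each). Every tdTom+ library was above every tdTom- library, but the log2 fold change of 0.60 ± 0.34 did not pass (SE, adjusted p = 0.601 by edgeR). Notch3 (chromosome 17, 32120820 to 32166852) had 65, 98 and 174 counts in the tdTom+ libraries and 150, 78 and 78 in the tdTom- libraries. It varied more within each group than between them, with a log2 fold change of 0.05 ± 0.43 (SE, adjusted p = 0.987 by edgeR) whose sign turned when tdTom+ replicate 3, tdTom- replicate 2 or tdTom- replicate 3 was left out (-0.44, -0.18 and -0.04) and with limma-voom (-9.6e-05).

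The libraries that were highest for Notch3, tdTom+ replicate 3 and tdTom- replicate 1, were also the highest of their group for the mural receptor gene Pdgfrb and for mesenchyme markers. Pdgfrb had 63, 54 and 150 counts in the tdTom+ libraries and 224, 90 and 97 in the tdTom- libraries. Summed mesenchyme markers were 229, 157 and 653 CPM in tdTom+ and 1096, 453 and 640 CPM in tdTom- libraries. Summed mural markers were highest in replicate 1 of both groups. Rgs5, a pericyte marker, was at no more than 7 counts in a tdTom+ and 25 in a tdTom- library. Whether the Notch3 reads came from endothelial or other cells was not tested.

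Dll4 was the most abundant ligand gene, with means of 191 ± 7.27 CPM in tdTom+ cells and 194 ± 19.7 CPM in tdTom- cells (SD, n = 3 each). Dll4 (chromosome 2, 119325784 to 119335962) had 183, 197 and 191 CPM in tdTom+ and 181, 216 and 184 CPM in tdTom- libraries. Its log2 fold change was -0.02 ± 0.09 (SE, adjusted p = 0.966 by edgeR), with overlapping groups. The sign of that value turned without tdTom+ replicate 1 (0.0038) or tdTom- replicate 2 (0.063). Dll1 (chromosome 17, 15367354 to 15376872), a delta ligand best known from neural and somite development, had 47.0, 32.3 and 69.2 CPM in tdTom+ and 43.2, 51.2 and 37.4 CPM in tdTom- libraries. The tdTom+ libraries spanned the whole tdTom- range, at a log2 fold change of 0.17 ± 0.24 (SE, adjusted p = 0.887 by edgeR) that became -0.15 without tdTom+ replicate 3. Dll1 was highest in tdTom+ replicate 3, which had the lowest neural marker sum of all libraries (15.9 CPM) and the highest mesenchyme marker sum of the tdTom+ libraries (653 CPM), and the part of such cells in the Dll1 values was not tested.

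Jag1 (chromosome 2, 137081456 to 137116644), a jagged ligand gene, had 423, 346 and 386 counts in the tdTom+ libraries and 755, 888 and 581 in the tdTom- libraries. In CPM these were 37.1, 31.7 and 36.1 in tdTom+ and 73.2, 75.2 and 65.0 in tdTom- libraries, or 35.0 ± 2.89 and 71.1 ± 5.38 CPM (SD, n = 3 each). The groups were far apart relative to their spread, with 37.1 CPM in the highest tdTom+ library and 65.0 CPM in the lowest tdTom- library. The log2 fold change was -1.03 ± 0.13 (SE, adjusted p = 0.00435 by edgeR). Neural and germ cell marker sums, which were lower too in every tdTom+ library, reached at most 39.9 and 93.7 CPM in a tdTom- library, and their part in the Jag1 difference was not tested. Jag1 stayed past the threshold in all 13 alternative analyses, with log2 fold changes from -1.11 to -0.96 and adjusted p up to 0.0465, the highest being without both libraries numbered 3.

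Jag2 (chromosome 12, 112907819 to 112929776), the other jagged ligand gene, leaned the same way with a smaller difference. It had 57.5, 66.3 and 58.1 CPM in tdTom+ and 71.1, 79.2 and 91.9 CPM in tdTom- libraries, without overlap. The log2 fold change of -0.41 ± 0.13 did not pass (SE, adjusted p = 0.217 by edgeR), and it passed in none of the 13 alternatives (adjusted p from 0.12 to 0.62).

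Within a library the ratio of Jag1 to Dll4 reads does not depend on how libraries are scaled. Jag1 reads were 20.3%, 16.0% and 18.9% of the Dll4 reads in tdTom+ libraries, against 40.5%, 34.7% and 35.4% in tdTom- libraries. The log2 ratio was -2.45 ± 0.17 in tdTom+ and -1.44 ± 0.12 in tdTom- cells (SD, n = 3 each), a difference of -1.01. An exact two-sided permutation test gave p = 0.1, the smallest value that 3 against 3 libraries allow.

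Set against exon length, the ligand pool of both fractions was mostly Dll4, with a smaller Jag1 part in tdTom+ cells. Dll4 made up 65.3% ± 3.90 of the summed CPM per kilobase of the 4 ligand genes in tdTom+ and 59.4% ± 1.07 in tdTom- cells, and Jag1 7.91% ± 0.695 and 14.5% ± 1.07 (SD, n = 3 each). Dll1 and Jag2 made up 15.3% ± 4.99 and 11.5% ± 1.28 of it in tdTom+ cells, and 12.3% ± 1.17 and 13.8% ± 2.20 in tdTom- cells (SD, n = 3 each). Among the receptors, Notch4 held 59.6% ± 7.77 in tdTom+ and 67.2% ± 3.09 in tdTom- cells, and Notch1 34.1% ± 4.79 and 28.1% ± 2.43 (SD, n = 3 each). Notch2 and Notch3 together were a minor part in every library.

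**Figure D2:**
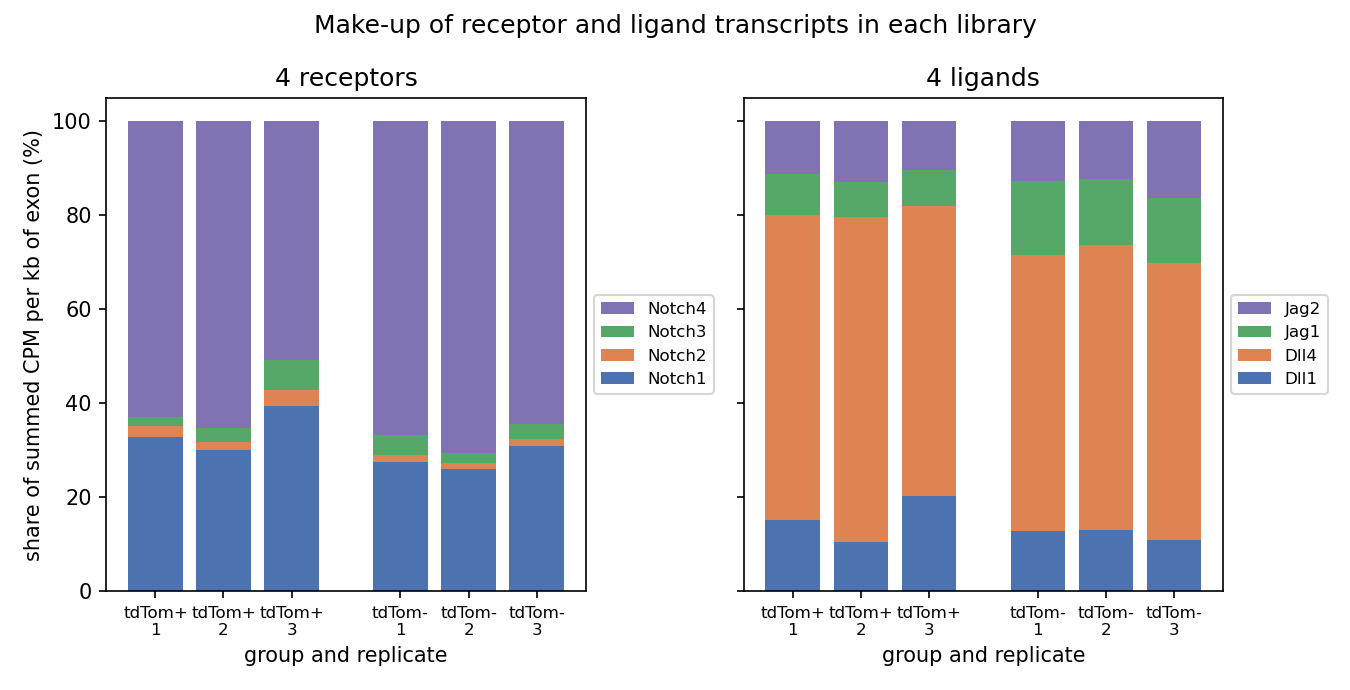
Share of each gene in the summed CPM per kilobase of exon (%, vertical axis) of the 4 receptor genes (left) and the 4 ligand genes (right), with 1 bar per library and tdTom+ libraries left of tdTom- libraries. The Jag1 part is 7.36% to 8.69% in the tdTom+ bars and 13.8% to 15.7% in the tdTom- bars, and Notch4 with Notch1 fills most of each receptor bar.

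Ranked by mean CPM per kilobase, Dll4 stood first in both fractions, with 49.5 ± 1.89 in tdTom+ and 50.3 ± 5.12 in tdTom- cells (SD, n = 3 each). In tdTom+ cells Notch4 at 20.7, Hey1 at 19.7, Dll1 and Notch1 each at 11.7, Jag2 at 8.70 and Jag1 at 6.0 CPM per kilobase followed, then Notch3 at 1.27, Notch2 at 0.834 and Hey2 at 0.734. Neighbours with overlapping ranges in that order were Notch4 and Hey1, Dll1 and Notch1, Notch3 and Notch2, and Notch2 and Hey2. In tdTom- cells the order after Dll4 was Hey1 at 27.5, Notch4 at 25.8, Jag1 at 12.2, Jag2 at 11.6, Notch1 at 10.7, Dll1 at 10.4, Hey2 at 3.69, Notch3 at 1.23 and Notch2 at 0.548 CPM per kilobase. There Hey1 and Notch4 overlapped, and so did each neighbouring pair from Jag1 to Dll1. Jag1 was thus below all other ligand genes in tdTom+ cells and overlapped Jag2 in tdTom- cells.

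The Hey genes encode repressors that act downstream of Notch, and loss of both in mouse embryos disrupts arterial development. Hey1 (chromosome 3, 8663359 to 8667256) had 65.2, 65.4 and 62.3 CPM in tdTom+ libraries, which lay close together, and 86.7, 102.5 and 80.4 CPM in tdTom- libraries. The groups did not overlap. Its log2 fold change of -0.48 ± 0.12 missed the threshold (SE, adjusted p = 0.0987 by edgeR), while DESeq2 called it lower (adjusted p = 0.0225), as did the authors' deposited table (adjusted p = 0.0225). That table has 211 genes called higher and 291 lower, the same as DESeq2 gave here on the same counts. It is therefore no separate result. DESeq2 called 3 members lower, Jag1, Hey1 and Hey2, beside 1.92% of all genes with an adjusted p in that test. For Hey1, leaving out single libraries gave adjusted p from 0.14 to 0.403.

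Hey2 (chromosome 10, 30832359 to 30842801) had the log2 fold change farthest from 0 of the 10 genes. It had 19, 76 and 16 counts in the tdTom+ libraries and 195, 227 and 114 in the tdTom- libraries, or 1.67, 6.96 and 1.5 CPM and 18.9, 19.2 and 12.8 CPM. The groups did not overlap, but tdTom+ replicate 2 was far above the other tdTom+ libraries. The log2 fold change was -2.33 ± 0.54 (SE, adjusted p = 0.0653 by edgeR). Without tdTom+ replicate 2 it was -3.42 ± 0.36 and passed (SE, adjusted p = 0.00255 by edgeR), and it passed too with DESeq2 (0.000555), limma-voom (0.037), no low-count filter (0.0417) and a stricter filter (0.0497). Leaving out any of the other 5 libraries kept it above the threshold, at adjusted p from 0.102 to 0.257. Blocked by replicate number, Hey2 was at -2.62 ± 0.43 and passed (SE, adjusted p = 0.00826 by edgeR). The authors' deposited table, no separate result from DESeq2, gives a log2 fold change of -2.333, turned round to tdTom+ over tdTom-, with an adjusted p of 0.000553.

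Replicate 2, the tdTom+ library highest for Hey2, was also the highest tdTom+ library for 9 of 12 listed arterial genes. It was so for 34.1% of all genes tested. Its lead was small for some, as for Nrp1 with 505, 512 and 436 CPM in the tdTom+ libraries. Of the arterial genes highest in tdTom+ replicate 2, Gja4, Gja5, Nrp1, Bmx, Igfbp3 and Epas1 were also highest in replicate 2 among the tdTom- libraries. Unc5b, Acvrl1 and Tmem100 were not. Of the remaining listed genes, Sox17 was highest in replicate 2 of the tdTom- libraries only, and Efnb2 and Cxcr4 in neither group. Bmx, a kinase gene of arterial endothelium, had 99, 218 and 90 counts in the tdTom+ libraries and 181, 372 and 130 in the tdTom- libraries. Tmem100, a membrane protein gene of arterial endothelium, had 9.12, 19.3 and 12.4 CPM in tdTom+ and 32.1, 21.2 and 23.3 CPM in tdTom- libraries. Their part in the Hey2 value of that library was not tested.

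**Figure D3:**
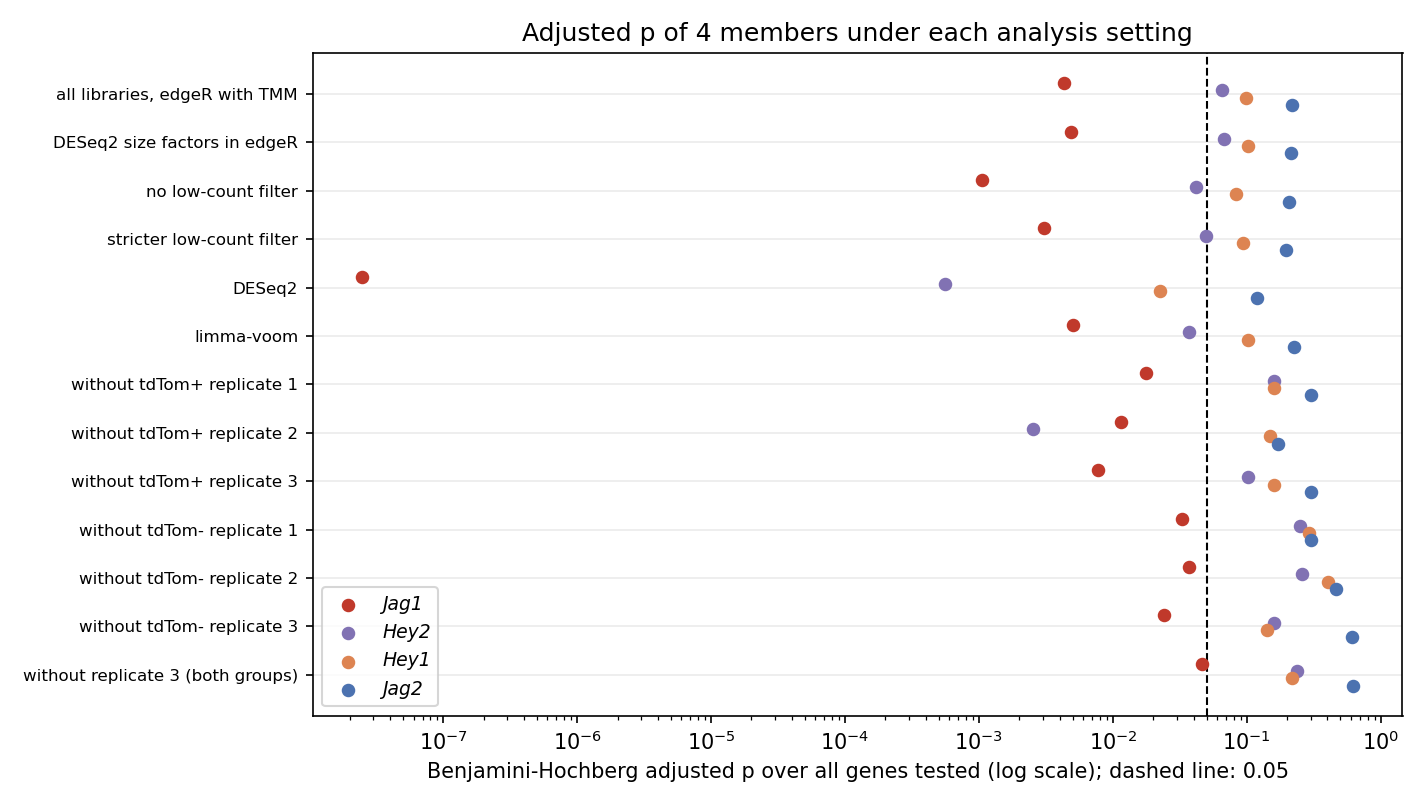
Adjusted p over all genes tested (horizontal log axis, dashed line at 0.05) of Jag1, Hey2, Hey1 and Jag2 with all libraries under edgeR (top) and under 12 other settings of normalization, filter, tool or libraries. Jag1 lies left of the line in each, with a highest value of 0.0465. Hey2 crosses it in 5 of the other settings plotted, Hey1 with DESeq2 only, and Jag2 in none of those plotted. The fit blocked by replicate number is not plotted. In it Jag1 and Hey2 lay under 0.05 (edgeR adjusted p = 0.00354 and 0.00826).

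Promoter sequence bears on the Hey genes because RBPJ, the DNA-binding partner of cut Notch, binds a core of the letters TGGGAA. RefSeq (GRCm38.p6) gave 10 windows, from 250 bases before to 50 bases after a start, for 9 of the 10 genes; Hey1 was not matched. The Hey2 window alone held TGGGAA on either strand, with 2 matches, and 25.6% of all 32851 windows of that length hold it. Both Hey2 matches also carry the longer form GTGGGAA, which contains the first motif and is in 6.38% of windows. The palindrome CACGTG, bound by Hey proteins among others, was in no member window and in 7.15% of all windows, and CACGCG was in 5 members' windows, Notch2, Dll1, Dll4, Jag1 and Jag2, against 9.27% of all windows. A match is a description of these letters and not a measured binding site. Shown are the Hey2 window (chr10:30842759-30843033, minus strand), as the member with the fold change farthest from 0, and the Jag1 window (chr2:137116496-137116770, minus strand), as the called ligand gene. Each runs 5′ to 3′ from 250 bases before to 25 bases after the start, with TGGGAA or its reverse complement in capitals.
Hey2: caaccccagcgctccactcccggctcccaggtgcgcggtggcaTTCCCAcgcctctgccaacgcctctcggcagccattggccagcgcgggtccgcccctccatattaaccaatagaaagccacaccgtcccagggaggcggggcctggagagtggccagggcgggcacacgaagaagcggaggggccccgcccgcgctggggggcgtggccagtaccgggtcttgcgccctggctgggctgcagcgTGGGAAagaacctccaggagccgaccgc
Jag1: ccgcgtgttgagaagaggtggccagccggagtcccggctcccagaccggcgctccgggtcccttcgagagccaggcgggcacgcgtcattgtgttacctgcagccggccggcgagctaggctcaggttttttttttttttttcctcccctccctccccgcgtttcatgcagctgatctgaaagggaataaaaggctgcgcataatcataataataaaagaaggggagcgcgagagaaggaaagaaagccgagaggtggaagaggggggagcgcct

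The Hey2 matches lie at -207 to -202 on the reverse strand and at -3 to 3 around the start, with the first transcribed base counted as 1 and the base before it as -1. The Jag1 line has no capitals.

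The rest of the pathway was measured with a list of 48 other genes, of which 45 were abundant enough to test. With all libraries and the settings used throughout, edgeR called none in either direction. An unadjusted p under 0.05 was reached by 5, 2 with higher and 3 with lower means in tdTom+ cells, beside 10.7% of all genes tested. DESeq2 called 3 of the pathway genes, 2 higher and 1 lower, beside 3.32% of all genes with an adjusted p in that test, 1.39% higher and 1.92% lower. The list's median log2 fold change was -0.08, beside -0.00026 over all genes tested, and its groups did not overlap in 15.6% of genes, beside 17.2% of all genes. The other targets tested, Hes1, Nrarp, Hes5 and Heyl, had no call and log2 fold changes from -0.69 to -0.12. Hes1, a repressor gene switched on by Notch in many tissues, had 220, 184 and 200.1 CPM in tdTom+ and 203, 239 and 215 CPM in tdTom- libraries. Nrarp, a feedback inhibitor of Notch, had 169, 174 and 126 CPM in tdTom+ and 171, 180.3 and 176 CPM in tdTom- libraries. Both overlapped between groups, unlike Hey1 and Hey2.

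Genes of the transcription complex, such as Rbpj and the coactivator genes Maml1 to Maml3, had log2 fold changes from -0.16 to 0.30 over 7 tested members. Rbpj had 24.2 ± 3.79 CPM in tdTom+ cells and 24.3 ± 3.68 CPM in tdTom- cells (SD, n = 3 each). The 5 glycosyltransferase genes, which include the fringe genes that tune which ligand a receptor answers to, ran from -0.39 to -0.07, and the most abundant fringe gene, Mfng, had 236 ± 40.6 CPM in tdTom+ cells and 259 ± 18.2 CPM in tdTom- cells (SD, n = 3 each). Adam10, which encodes the protease that makes the first ligand-induced cut, had 376 ± 31.2 CPM in tdTom+ cells and 395 ± 26.7 CPM in tdTom- cells (SD, n = 3 each).

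The 4 pathway genes with the smallest p lay in 3 roles. Neurl3, of the neuralized family of ubiquitin ligases, had 259, 401 and 423 counts in the tdTom+ libraries and 136, 165 and 166 in the tdTom- libraries, with a log2 fold change of 1.12 ± 0.25 (SE, adjusted p = 0.0564 by edgeR). Psen2, a catalytic subunit gene of gamma-secretase, had 381, 546 and 402 counts in the tdTom+ libraries and 258, 278 and 197 in the tdTom- libraries, with a log2 fold change of 0.78 ± 0.19 (SE, adjusted p = 0.0796 by edgeR). Both had every tdTom+ library above every tdTom- library and missed the threshold. Neurl3 passed with no low-count filter (adjusted p = 0.0286), with the stricter filter (0.0441) and without tdTom+ replicate 1 (0.0331), and Psen2 in none of these. Blocked by replicate number, Neurl3 passed too (edgeR adjusted p = 0.0193) and Psen2 did not. Aph1b, another gamma-secretase subunit gene, had 42, 54 and 42 counts in the tdTom+ libraries and 115, 158 and 71 in the tdTom- libraries, at a log2 fold change of -1.37 ± 0.35 (SE, adjusted p = 0.0987 by edgeR). Aph1b has the close copy Aph1c in mouse, so its reads may be split between them. Aph1c, too low to test, had 23, 21 and 2 counts in the tdTom+ libraries and 1, 8 and 6 in the tdTom- libraries. Dlk1, a ligand-like gene that lacks the domain of the canonical ligands, had 43.0, 22.7 and 31.7 CPM in tdTom+ and 176, 46.9 and 95.0 CPM in tdTom- libraries, at -1.70 ± 0.48 (SE, adjusted p = 0.205 by edgeR). Without tdTom- replicate 2 it was at -2.06 ± 0.29 and passed (SE, adjusted p = 0.0175 by edgeR). With the replicate block, Dlk1 passed as well, at -1.57 ± 0.18 (SE, adjusted p = 0.000865 by edgeR). In tdTom- libraries Dlk1 had the same order as the mesenchyme marker sums (1096, 453 and 640 CPM). In tdTom+ libraries (229, 157 and 653 CPM) it did not. The part of such cells in the Dlk1 values was not tested. DESeq2 called Neurl3, Psen2 and Aph1b (adjusted p = 0.00269, 0.0148 and 0.0255).

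**Figure D4:**
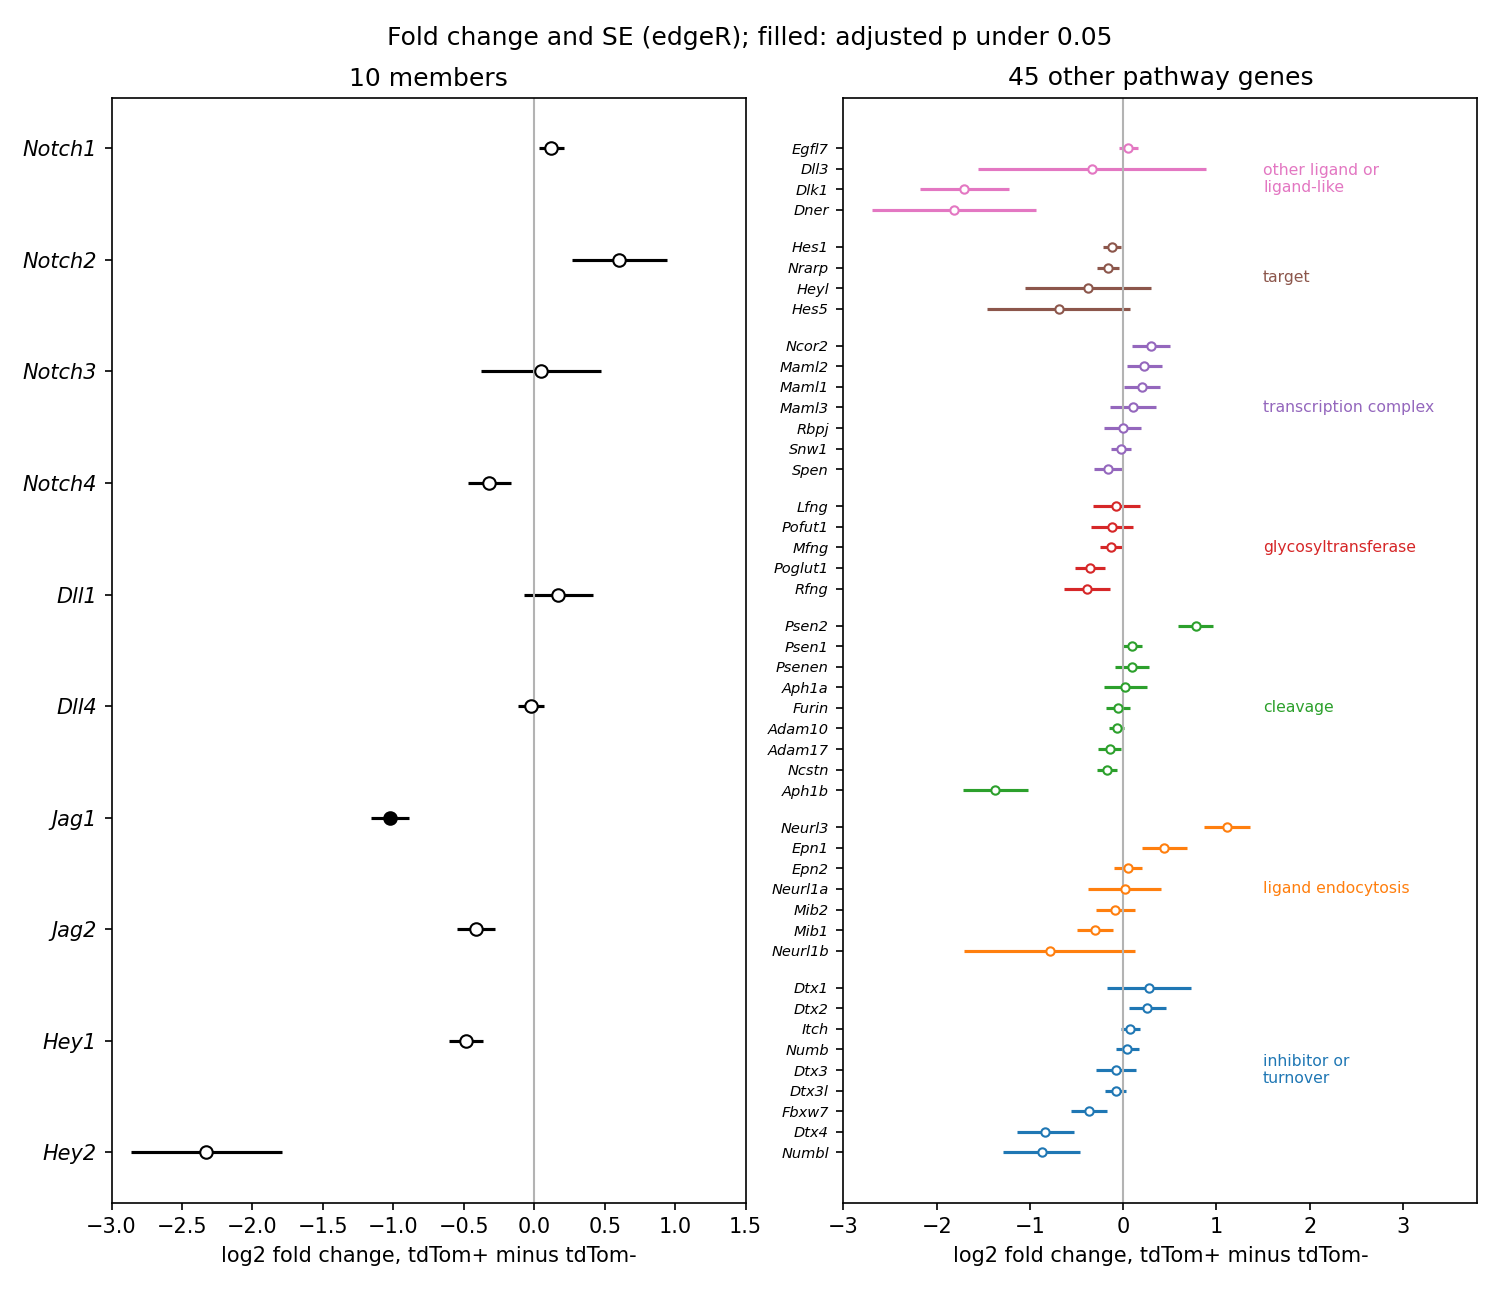
Log2 fold change, tdTom+ minus tdTom-, with its SE (horizontal axes) for the 10 genes (left) and the 45 tested other pathway genes by role (right); filled points have an edgeR adjusted p under 0.05. Jag1 at -1.03 is the only filled point, Hey2 lies farthest from 0 among the 10 genes at -2.33, and most other pathway genes lie near 0.

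Genes whose profile over the 6 libraries was most like that of Jag1, by the root-mean-square distance of mean-centred log2(CPM + 0.5) among 9978 genes outside the lists used here with an average log2 CPM of at least 3, were Kdelr3, Lsr and Gli3. The distances were 0.089, 0.119 and 0.12. Kdelr3, a receptor gene of endoplasmic reticulum retrieval, had 8.24, 7.05 and 8.04 CPM in tdTom+ and 19.2, 18.8 and 17 CPM in tdTom- libraries. Lsr, a gene of tricellular junctions, had 43.8, 35.6 and 35.6 CPM in tdTom+ and 81.3, 87.4 and 84.9 CPM in tdTom- libraries. Gli3, a transcription factor gene of hedgehog signalling, had 15.6, 15.4 and 14.5 CPM in tdTom+ and 28.0, 32.0 and 30.7 CPM in tdTom- libraries. All of these were tight within each group, as Jag1 was, which follows from picking them by likeness to Jag1.

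Of the 12 arterial genes, 1 was called lower, the gap junction gene Gja4, beside 0.814% of all genes tested, and 10 had negative log2 fold changes. Efnb2, an ephrin ligand gene of arteries and a Notch target, had 220.2, 219 and 197 CPM in tdTom+ and 315, 253 and 257 CPM in tdTom- libraries, without overlap and without a call (log2 fold change -0.37 ± 0.10, SE, adjusted p = 0.111 by edgeR). The groups did not overlap in 7 of the 12, all with lower tdTom+ values, beside 9.35% of all genes tested. Sox17, an arterial transcription factor gene, and Nrp1, a co-receptor gene, overlapped between groups, with log2 fold changes of -0.12 ± 0.10 and 0.0082 ± 0.09 (SE).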

How the data were processed

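Read counts per gene symbol are as deposited by the authors, without normalization. In the submitters' processing notes stand the tools featureCounts 1.4.6, DESeq2, STAR 2.5.2b, Trimmomatic 0.36.4 and Picard 2.7.1.1, and the build mm10; the notes assign them no role here. Per the labels' protocols, cDNA was amplified with the SMART-seq v4 kit and made into libraries with Nextera XT, which does not mark strand. The deposited table's log2 fold change and p-value columns, by the authors, run tdTom- over tdTom+ and were turned round. Its 6 normalized columns were not used. Amplified reads without molecular identifiers are not independent molecules.

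R 4.3.3 with edgeR 4.0.16 was used to test the counts (TMM, robust quasi-likelihood fit, genes kept by filterByExpr at its minimum count of 10), adjusted by Benjamini-Hochberg over 13142 genes at a threshold of 0.05, and the members were read from that fit. An SE was obtained as the size of the log2 value over the root of its F. Alternatives were DESeq2 1.42.0, limma 3.58.1 with voom, other filters (a minimum of 30 or none), DESeq2's size factors, libraries left out and a replicate block. Levels per kilobase used the merged exons of GENCODE M21, while the sources used here do not give the authors' annotation. In GENCODE, exons of Notch1, Notch3, Dll1 and Dll4 overlap an opposite-strand gene and those of Notch2 a same-strand gene, whose reads cannot be told apart from theirs. Replicate pairs within a group differed by more than sampling noise (mean chi-square per gene 7.85 to 19.0).

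All 10 members are named, with the 4 other pathway genes of smallest p, the 3 genes most like the member of smallest p, and marker sums. Efnb2, Sox17, Nrp1, Gja4, Bmx, Tmem100, Nr2f2, Pdgfrb, Rgs5, Mrc1, Csf1r, Ptprc, Hes1, Nrarp, Rbpj, Mfng and Adam10 were added after their values were seen. So were Gja5, Unc5b, Cxcr4, Acvrl1, Igfbp3 and Epas1. The members and lists were chosen with earlier results of these data known.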

Additional observations from a re-analysis of the deposited data

How the results depend on the processing

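Jag1 kept its direction and its call in all 13 alternatives. Jag2, Notch1, Notch2 and Notch4 kept their direction and stayed without a call in each. The number of members called lower was 1 in the edgeR analysis with all libraries, 2 with no low-count filter, the stricter filter or limma-voom (Jag1 and Hey2), and 3 with DESeq2 (Hey1 too). Leaving out libraries gave 1 to 2, and 0 members were called higher in any alternative. Of the other pathway genes, 1 was called higher with either other filter, and 2 higher and 1 lower with DESeq2; leaving out libraries gave 0 to 1 in either direction. Over all genes, DESeq2 called 211 higher and 291 lower, against 101 and 107 with edgeR. Leaving out 1 library gave 37 to 97 higher and 25 to 92 lower, and leaving out both libraries numbered 3 gave 27 and 16; fewer libraries give less power. Reversed signs were seen only in members without a call. With 1 library left out, Notch3 ran from -0.44 to 0.43, Dll1 from -0.15 to 0.40 and Dll4 from -0.069 to 0.063. Notch3 was at -0.44 without tdTom+ replicate 3, -0.18 without tdTom- replicate 2, -0.04 without tdTom- replicate 3, -0.53 without both libraries numbered 3 and -9.6e-05 with limma-voom. Dll1 was at -0.15 without tdTom+ replicate 3 and -0.25 without both libraries numbered 3. Dll4 was at 0.0038 without tdTom+ replicate 1 and 0.063 without tdTom- replicate 2. The cause of these shifts was not tested. The difference in the Jag1 to Dll4 log2 ratio ran from -1.08 to -0.91 when single libraries were left out and was -0.99 with 10 counts added.

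Nothing in the labels ties a replicate number to an embryo. Library deviations from their group means had correlations of 0.112, 0.0908 and 0.166 for libraries numbered 1, 2 and 3, so that 1 pair was under the limit of 0.1 set for pairing, although every library correlated best with its own number. By the sex genes Xist and Ddx3y, both libraries numbered 3 differed in sex from all the others. They had 571 or more Xist counts and at most 12 Ddx3y counts. The other libraries had at most 8 Xist and at least 1204 Ddx3y counts. With the replicate block, 128 genes were called higher and 167 lower, 2 members were called lower, Jag1 and Hey2 (edgeR adjusted p = 0.00354 and 0.00826), and of the other pathway genes 1 was higher, Neurl3, and 1 lower, Dlk1 (adjusted p = 0.0193 and 0.000865). Depth limits Hey2, Notch2 and Notch3 most, with 16 to 227 counts a library.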

Other observations

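Nr2f2, a transcription factor gene of veins that is known to hold back Notch signalling there, had 109, 99.0 and 148 CPM in tdTom+ and 88.9, 82.5 and 90.8 CPM in tdTom- libraries. Every tdTom+ library was above every tdTom- library, as in 7.88% of all genes tested, and the log2 fold change of 0.44 ± 0.15 did not pass (SE, adjusted p = 0.234 by edgeR). Of the 5 venous genes listed, 1 was called higher, Nrp2, beside 0.769% of all genes tested. Among pathway genes too low to test, Hes7 had 1, 0 and 0 counts in the tdTom+ libraries and 9, 4 and 9 in the tdTom- libraries, and Dlk2 had 9, 8 and 16 counts in the tdTom+ libraries and 6, 6 and 3 in the tdTom- libraries.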
